A study of Caenorhabditis elegans with 8 samples.

Results

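The genes described here act in the last steps of egg formation in Caenorhabditis elegans, a nematode: in the growing oocyte, in the eggshell and in the first divisions of the embryo. A list of 33 gene symbols was matched to the single-gene probe sets of the platform annotation, and 31 were found, of 17118 genes measured in all. The 2 others, egg-4 and egg-5, are read by no single-gene probe set and have no value here. A gene with more than 1 such probe set is represented by the brightest, judged by its mean on the 8 arrays.

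Total RNA was taken from mixed-stage cultures, which can hold embryos, larvae and adults together, and was biotin-labelled and hybridised to 1-colour Affymetrix arrays. Worms mutant for ercc-1 in the N2 background were measured on 4 arrays, and wild type N2, the standard laboratory strain, on 4 others. The ERCC-1 protein belongs to the nuclease that excises damage in nucleotide excision repair (NER), and the labels call the mutant deficient in NER without naming the allele. The food of both strains, over 3 to 4 days, was Escherichia coli HT115(DE3) with pL4440, a plasmid commonly used as an empty vector for RNA interference by feeding. Nothing in the labels ties the arrays of a strain to separate cultures; the p-values therefore reflect the spread between samples, which may be technical. In whole worms, fewer germ cells and less RNA per germ cell cannot be told apart.

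In a hermaphrodite the germ line makes sperm first and then oocytes, which grow, take up yolk and stop in meiotic prophase until a signal from sperm sets off their maturation. Transcription is low in the fully grown oocyte and the earliest embryo, so their proteins are made from stored maternal messages under the control of RNA-binding proteins. After fertilisation the egg secretes a shell of several layers and finishes meiosis, and RNA-binding proteins inherited from the oocyte set the fates of the first blastomeres.

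The values are the authors' deposited log2 expression values, and all differences are ercc-1 mutant minus wild type N2 on the log2 scale. The probe set of ercc-1 itself read 9.84, 9.75, 9.83 and 9.93 on mutant arrays 1 to 4, against 9.74, 9.78, 10.02 and 9.87 on wild-type arrays 1 to 4, so the groups overlapped. Since the allele and the place of the probes within the gene are not known here, this checks no label, and "mutant" means the arrays labelled so. Array medians ran from 7.44 to 7.59 in the mutant and from 7.39 to 7.44 in wild type, and the highest value on any array was 14.38. The mean over 8 arrays was at least 10 for 30 of the 31 genes, and 7.75 for moe-3. All 31 lay above 6.425, below which the dimmest 25% of means lie. The value of a probe set depends on its probes as well as on its transcript, so values of different genes are not ranked against each other.

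None of the 31 genes passed the test between the strains, and the fitted differences were small. They ran from -0.1325 to 0.0775 with a median of -0.03, beside 0.03 over all genes. By limma's moderated test, with Benjamini-Hochberg adjustment over all 22548 probe sets and a threshold of 0.05, 0 of the 31 genes were called, against 0.672% of all genes (115 of 17118) and 0.665% of all probe sets. At an unadjusted p under 0.05 it was also 0 of 31, against 10.5% of all genes. Adjusted p ran from 0.519 for cey-3 to 0.995 for spn-4. A p above the threshold does not show that levels were equal, so the intervals matter more. The 95% confidence interval of the difference lay within 1.5-fold in either direction for 31 of 31 genes, against 90.0% of all genes. It lay within 1.25-fold for 30 of 31, mex-1 being the exception, against 50.4% of all genes. The lowest bound was 0.778-fold, for mex-1, and the highest 1.22-fold, for moe-3. The comparison with all genes is not matched for brightness, since 30 of the 31 means were at least 10 and array medians ran from 7.39 to 7.59. The median SE was 0.0752 for the 31 genes and 0.0983 over all genes. Whether the narrower intervals go with brightness was not tested.

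**Figure D1:**
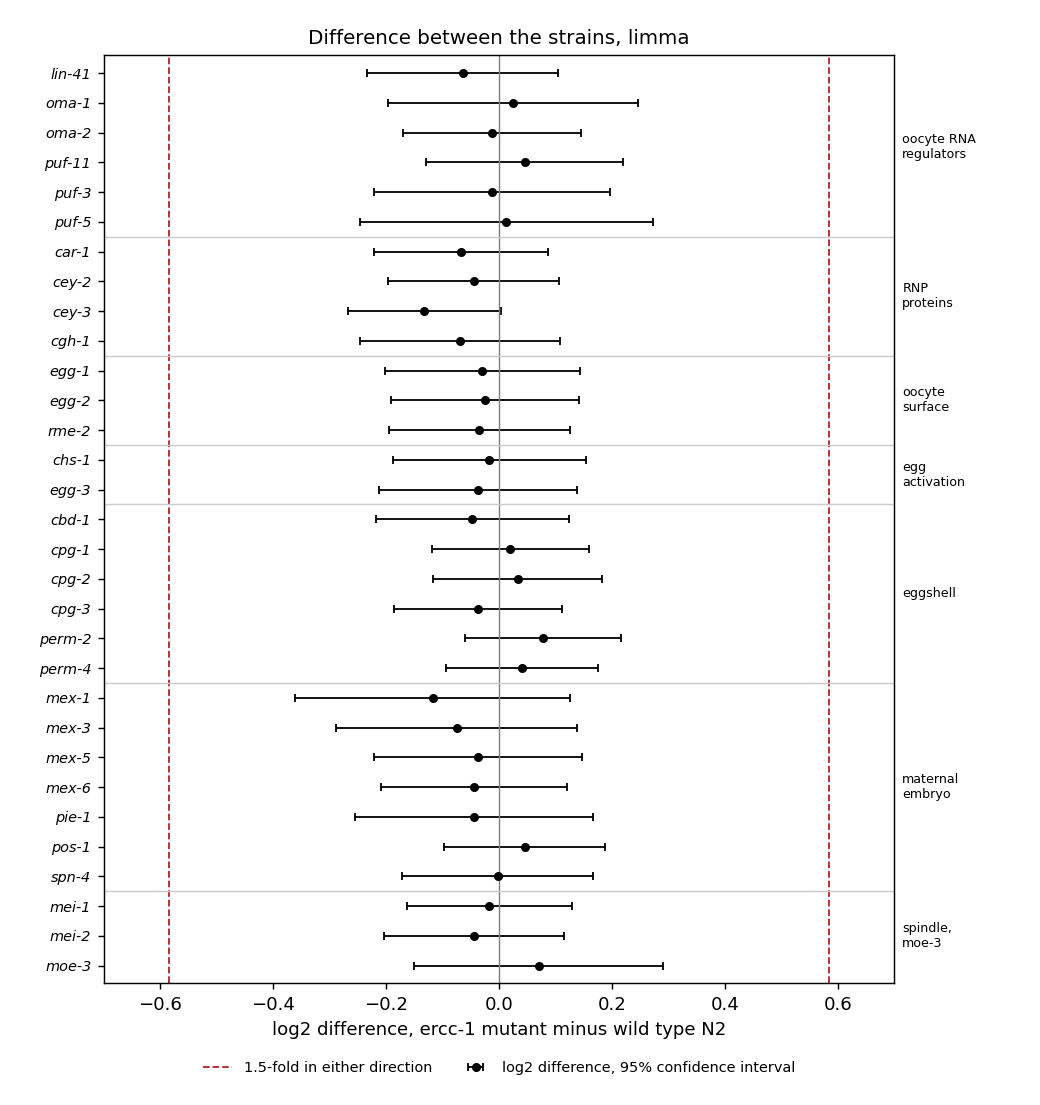
Each row is 1 of the 31 genes, grouped by role, and the x axis is the log2 difference between 4 ercc-1 mutant and 4 wild type N2 arrays. Points are the fitted differences, bars are 95% confidence intervals, and dashed lines mark 1.5-fold. All 31 intervals cross 0 and end inside the dashed lines.

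The direction of some of these small differences depended on scaling, while most of the 31 genes were lower in the mutant under each scaling. As deposited, 9 genes were higher and 22 lower in the mutant, while 59.5% of all genes were higher. Centring each array on its median lowered every difference by 0.09, and 31 of 31 were then lower in the mutant, from -0.2225 to -0.0125, with 0 called. Their median was then -0.12, beside -0.06 over all genes. The intervals still lay within 1.5-fold for 31 of 31, with the lowest bound at 0.734-fold. Quantile normalization gave 6 genes higher and 25 lower, with a median of -0.0636, beside -0.0127 over all genes. Without mutant arrays 1 and 4, the pair of arrays with the lowest correlation over all probe sets (0.978), the median as deposited was 0.025, with 22 genes higher and 9 lower. This alternative was added after the data were seen. Relative to the wild-type mean, the median of the 31 genes was -0.05 and -0.085 on these arrays, against 0.01 and 0.0525 on mutant arrays 2 and 3. A higher median without them therefore follows from the choice of arrays.

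Among the RNA regulators of the oocyte, 6 of 6 did not pass, with a median of 0. The gene lin-41 encodes a TRIM-NHL protein that holds back oocyte maturation. It read 11.31, 11.25, 11.41 and 11.18 on the mutant arrays, against 11.45, 11.37, 11.28 and 11.31 on the wild-type arrays. The groups overlapped (difference -0.065, SE 0.0755, adjusted p = 0.85), and a second lin-41 probe set read 0.0425. The Pumilio-family repressor gene puf-11 read 11.71, 11.79, 11.97 and 11.83 in the mutant, against 11.8, 11.82, 11.67 and 11.83 in wild type. Mutant array 3 was the highest and wild-type array 3 the lowest (difference 0.045, SE 0.0779, adjusted p = 0.911). The other Pumilio-family genes, puf-3 and puf-5, had differences of -0.0125 and 0.0125. The CCCH zinc finger genes oma-1 and oma-2, which together are needed for maturation, had 0.025 and -0.0125, and the second oma-2 probe set read 0.0925. The intervals were widest for puf-5, from 0.843-fold to 1.21-fold.

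The genes for proteins that package germ line messages into granules had the lowest median of the role groups, -0.0688. For 4 of 4 genes the difference was negative, against 40.5% of all genes, and none passed. The Y-box protein gene cey-3 read 12.93, 13.01, 12.97 and 12.99 in the mutant, against 13.14, 13.09, 13.13 and 13.07 in wild type. All 4 mutant values lay below all 4 wild-type values, and both groups were tight. The difference was -0.1325 (SE 0.0605, adjusted p = 0.519), which is 0.912-fold, with a 95% confidence interval of the difference from -0.268 to 0.0034. The exact two-sided permutation test gave p = 0.0286, the smallest that 4 against 4 arrays allow, before any adjustment. Of the 31 genes this was the 1 whose groups did not overlap, against 6.88% of all genes, so the count is near the background. The gene car-1, for an Sm-like protein of the same granules, read 12.98, 12.93, 12.95 and 12.86 in the mutant, against 13.11, 12.95, 12.99 and 12.94 in wild type. Here the groups overlapped (difference -0.0675, SE 0.0684, adjusted p = 0.825). The DEAD-box helicase gene cgh-1 and the Y-box gene cey-2 had -0.07 and -0.045.

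At the surface of the oocyte, the yolk receptor gene rme-2 read 12.49, 12.48, 12.61 and 12.54 in the mutant, against 12.58, 12.59, 12.44 and 12.65 in wild type. The fertilisation protein gene egg-1 read 12.35, 12.49, 12.49 and 12.36 in the mutant, against 12.51, 12.49, 12.3 and 12.51 in wild type. In both genes the lowest of the 8 values was that of wild-type array 3, and the groups overlapped. Differences were -0.035 for rme-2 (SE 0.0715, adjusted p = 0.93), -0.03 for egg-1 (SE 0.077, adjusted p = 0.946) and -0.025 for egg-2, the paralogue of egg-1. In the egg activation group, egg-3, whose pseudophosphatase product anchors the activation machinery at the cortex, read 11.37, 11.49, 11.53 and 11.29 in the mutant, against 11.42, 11.53, 11.37 and 11.51 in wild type. The chitin synthase gene chs-1 read 11.52, 11.46, 11.7 and 11.45 in the mutant, against 11.56, 11.53, 11.5 and 11.61 in wild type. Mutant array 3 read highest and mutant array 4 lowest among the mutant arrays in both genes, and all wild-type values fell within that range. The differences were -0.0375 for egg-3 (SE 0.0783, adjusted p = 0.932) and -0.0175 for chs-1 (SE 0.0761, adjusted p = 0.971).

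Of the 6 eggshell genes 0 passed. The gene perm-2 encodes a protein of the outer vitelline layer and had the highest difference of the 31 genes. It read 13.32, 13.29, 13.26 and 13.27 in the mutant, against 13.18, 13.17, 13.2 and 13.28 in wild type. Wild-type array 4 lay inside the mutant range and the other wild-type arrays below it (difference 0.0775, SE 0.0617, adjusted p = 0.763). Its neighbour on chromosome IV, perm-4, which also acts in the vitelline layer, read 13.39, 13.34, 13.42 and 13.37 in the mutant, against 13.33, 13.35, 13.31 and 13.37 in wild type. The groups overlapped (difference 0.04, SE 0.0599, adjusted p = 0.895). Among the other eggshell genes, those for chondroitin proteoglycans, cpg-1, cpg-2 and cpg-3, had 0.02, 0.0325 and -0.0375. For cbd-1, which encodes a chitin-binding protein of the vitelline layer, it was -0.0475. The group's median was 0.0262, with 4 of 6 genes above 0 and none past the test. Second probe sets turned the sign for cpg-2 (-0.04) and cbd-1 (0.0375). Of all 31 genes, 8 had means of at least 13, near the top of the scale; whether their probes were close to saturation, where a fold is understated, was not tested.

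Among the maternal regulators of blastomere fate 6 of 7 had negative differences and none passed. The CCCH gene mex-1 read 11.38, 11.13, 11.29 and 10.97 in the mutant, against 11.51, 11.29, 11.17 and 11.27 in wild type. Array 1 was the highest of each strain, and the range of 0.54 over the 8 arrays was the widest of the 31 genes (difference -0.1175, SE 0.109, adjusted p = 0.802). The KH-domain gene mex-3 read 11.84, 12.08, 12 and 11.73 in the mutant, against 11.84, 12.01, 12.01 and 12.09 in wild type. Array 1 was here the lowest wild-type array and tied with mutant array 1 (difference -0.075, SE 0.0949, adjusted p = 0.866). The paired CCCH genes mex-5 and mex-6, whose products mark the anterior of the zygote, had -0.0375 and -0.045, and the second mex-5 probe set read 0.0825. For pie-1, which represses transcription in the germ line blastomeres, it was -0.045. The RNA-binding protein genes pos-1 and spn-4 had 0.045 and -0.0025, and their second probe sets read -0.0075 and 0.03.

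The katanin subunits MEI-1 and MEI-2 cut microtubules in the meiotic spindle. The regulatory subunit's gene mei-2 read 11.69, 11.84, 11.77 and 11.64 in the mutant, against 11.7, 11.79, 11.81 and 11.82 in wild type. The groups overlapped (difference -0.045, SE 0.0708, adjusted p = 0.902), as they did for the catalytic subunit's gene mei-1 (-0.0175). The CCCH gene moe-3 read 7.97, 7.65, 7.65 and 7.87 in the mutant, against 7.54, 7.8, 7.76 and 7.76 in wild type. The mutant arrays held both the highest value and values below 3 wild-type arrays (difference 0.07, SE 0.0983, adjusted p = 0.885).

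**Figure D2:**
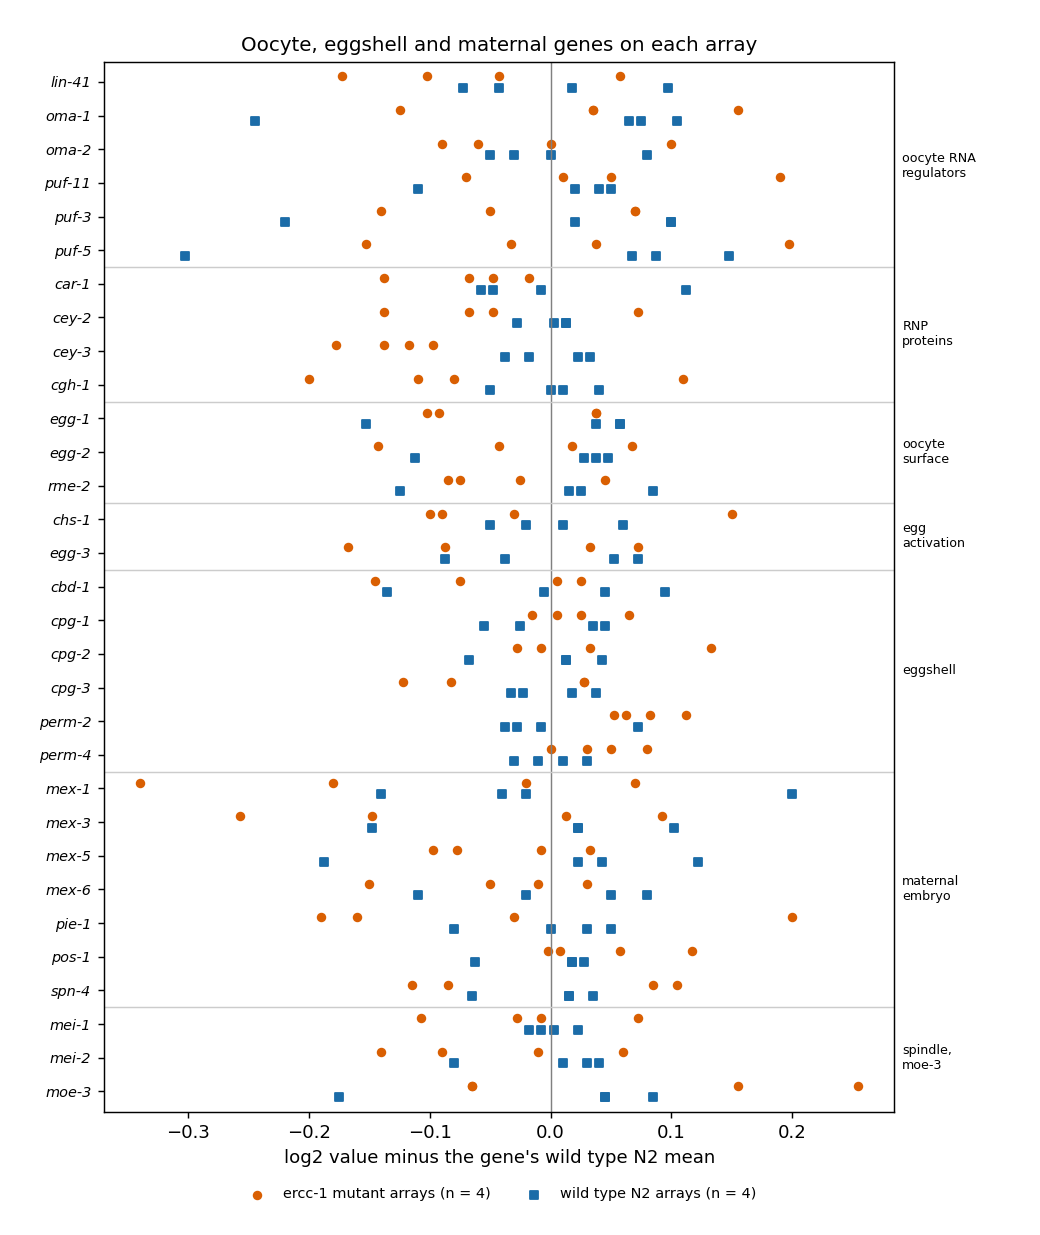
Each row is 1 of the 31 genes, and the x axis is the log2 value on an array minus the gene's wild type N2 mean. Circles are the 4 ercc-1 mutant arrays and squares the 4 wild type N2 arrays, and equal values lie on top of each other. The groups overlap in every row except that of cey-3, and a single wild-type square lies far to the left for oma-1, puf-3 and puf-5.

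For the 31 genes, the median SD between arrays of 1 strain was larger than the median size of the difference between strain means. These are unlike measures, since each strain mean averages 4 arrays. The median range of a gene over the 8 arrays was 0.23, beside 0.44 over all genes, and the median size of the strain difference was 0.04, beside 0.085 over all genes. The median SD was 0.0873 over mutant arrays and 0.0744 over wild-type arrays, beside 0.151 and 0.111 over all genes. Here too the 31 genes and all genes were not matched for brightness. The SD was larger in the mutant for 20 of 31 genes and for 67.0% of all genes, so in this the egg genes were close to the background. Relative to each gene's wild-type mean, the median over the 31 genes was -0.05, 0.01, 0.0525 and -0.085 on mutant arrays 1 to 4, against 0.015, 0.0225, -0.0625 and 0.0375 on wild-type arrays 1 to 4. Mutant arrays 1 and 4 and wild-type array 3 were thus the low ones, and mutant array 3 the high one. Over all genes the same medians were 0.035, 0.0375, 0 and 0.04 in the mutant, against -0.0075, -0.0225, 0.035 and 0 in wild type, so the arrays low in egg genes were not low over all genes. Wild-type array 3 was the lowest of its strain, ties included, for 22 of the 31 genes, against 23.9% of all genes. Mutant array 3 was the highest of its strain for 17 of the 31, against 19.1% of all genes. These counts are descriptions, since the 31 genes share their arrays and were not drawn at random.

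Of the 31 genes, 14 had more than 1 single-gene probe set, which gave 17 further probe sets. A further mex-1 probe set, which the annotation lists under more than 1 entry, was left out. Of the 17, 0 were called by limma and 0 had an unadjusted p under 0.05, and 7 had the opposite sign. Of those with the same sign, mex-6 and perm-2 had smaller differences than the probe set that stood for the gene (-0.0075 and 0.0375). The others had larger ones in size: car-1 -0.1825 and -0.0875, cgh-1 -0.1775, mex-3 -0.095, cpg-1 0.07, and perm-4 0.0875, 0.08 and 0.2825. The intervals of 15 of the 17 lay within 1.5-fold. The first exception was the second probe set of cgh-1, which read 11.63, 11.33, 11.97 and 10.68 in the mutant, against 12, 11.63, 11.24 and 11.45 in wild type. It spanned 1.32 over the arrays, while the probe set that stood for cgh-1 spanned 0.31, and mutant array 4 was lowest in it. The other exception was a perm-4 probe set that read 8.45, 7.95, 7.59 and 7.56 in the mutant, against 8, 7.34, 7.51 and 7.57 in wild type. Array 1 was the highest of each strain there, a pattern that the other perm-4 probe sets do not have.

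**Figure D3:**
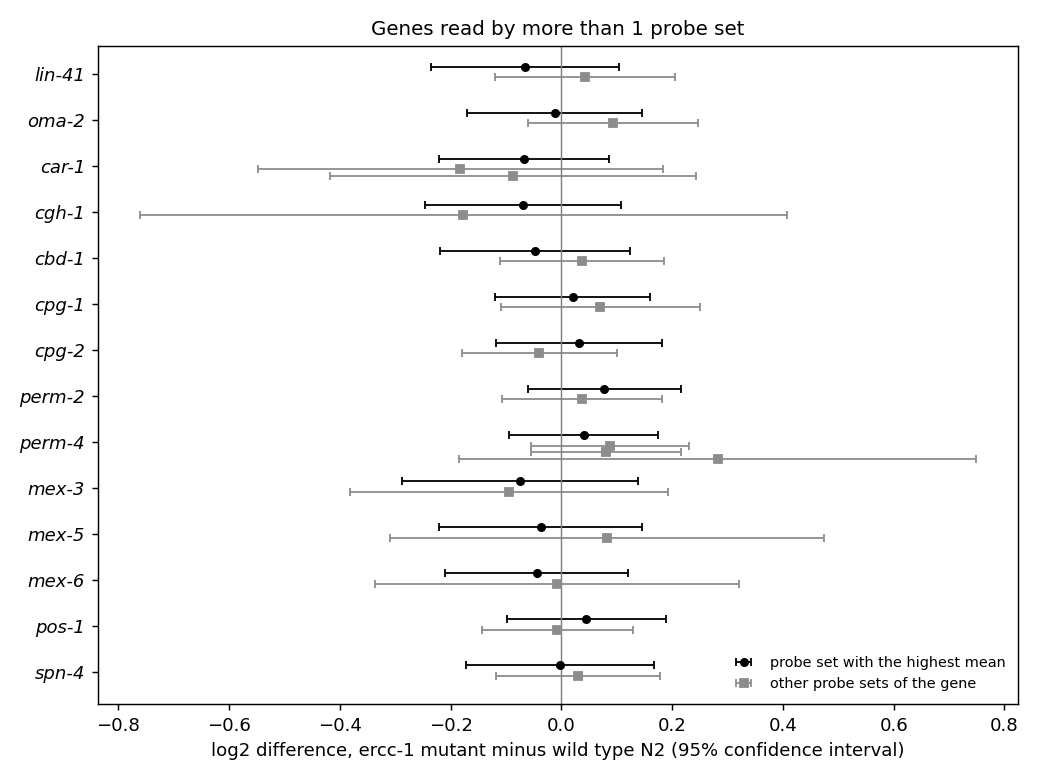
Rows are the 14 genes read by more than 1 single-gene probe set. The x axis is the log2 difference, ercc-1 mutant minus wild type N2, with its 95% confidence interval (4 arrays per strain). Circles are the probe sets that stand for the genes and squares the other 17. All intervals cross 0, and the widest are those of a cgh-1 and a perm-4 probe set.

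Other genes of egg formation were also without a call, and so were the earlier germ line genes. Of 12 measured genes among other eggshell and egg activation genes 0 were called (median 0.0025, gna-2 and cpg-8 at -0.165 and 0.0775). The gene gna-2, which supplies the sugar precursor of chitin, had an unadjusted p of 0.0484 and an adjusted p of 0.503 in limma. The counts were 0 of 18 for other maternal RNA regulators and polarity genes (median -0.0138, gld-2 and gld-3 at -0.175 and 0.103) and 0 of 15 for oocyte maturation signalling (median 0, kin-2 and gsa-1 at 0.26 and 0.165). Among genes of the undifferentiated germ line and P granules it was 0 of 15 (median -0.045, glp-1 and sygl-1 at -0.1525 and -0.185), and among genes of meiotic chromosomes 0 of 13 (median -0.05, syp-3 and htp-1 at -0.195 and -0.1425). The yolk protein genes, expressed in the intestine, gave 0 of 5 (median 0.0675, vit-2 and vit-5 at 0.13 and 0.0675). Zygotic embryo factors gave 0 of 17 (median 0.0525, pha-4 and elt-7 at 0.275 and 0.325, adjusted p = 0.107 and 0.141).

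Part of the sperm list passed the test. Of 35 measured genes 18 were called higher in the mutant and 0 lower, against 0.532% and 0.14% of all genes, with a median of 1.02. They were ssp-10, msp-3, msp-19, msp-31, msp-33, msp-36, msp-38, msp-45, msp-49, msp-50, msp-55, msp-59, msp-64, msp-65, msp-76, msp-77, msp-78 and msp-152, with differences from 0.78 to 1.23. Their probe sets carry a suffix for possible matches to several transcripts, and this rise was known when the list was written. All of the called genes but ssp-10 are msp genes, and their probe sets may read each other's transcripts. The 18 calls can therefore not be counted as 18 separate signals, and the shares of all genes are only a rough background. The number called was 10, 5, 13 and 24 without mutant arrays 1, 2, 3 and 4, and 1 without any 1 of the 4 wild-type arrays, while the median stayed between 0.824 and 1.09. Over the 6 sperm genes with a probe set free of such a suffix, 0 were called and the median was 0.0575. These were ssp-16, spe-11, spe-4, spe-38, spe-10 and fer-1, with no msp gene among them. They therefore cannot show whether the msp rise depends on the suffix. In the fit to all probe sets ssp-16 and spe-11 had 0.4725 and 0.2925 (limma adjusted p = 0.292 and 0.393). The others lay between 0.0275 and 0.0725. The suffixed spe-9, spe-26, spe-39 and spe-41 had 0.04, -0.0325, 0.0525 and 0.1875. Larger differences outside the msp genes, also from suffixed probe sets and without a call, were those of nspd-1, nspd-2, gsp-3 and gsp-4. They were 0.8975, 1.0275, 0.7625 and 0.615, so large differences were not confined to msp genes and ssp-10. How far these probe sets read other transcripts was not tested. Relative to the wild-type mean the median of the sperm list was 0.855, 0.793, 0.72 and 1.58 on mutant arrays 1 to 4, against 0.06, -0.1375, -0.035 and 0.095 on wild-type arrays 1 to 4. Mutant array 4, with the highest sperm median, had the lowest median of the 31 egg genes. Among the 4 mutant arrays the order was the reverse throughout, with array 4 highest in sperm genes, then 1, 2 and 3, and array 3 highest in egg genes, then 2, 1 and 4. Among the wild-type arrays it was not, since array 4 was the highest in both.

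Of the other cells that can be sampled with the gonad, the sheath and spermatheca list gave 0 of 9 called. The differences of 9 of 9 were above 0, against 59.5% of all genes, with inx-9 and ceh-18 at 0.3025 and 0.245 (limma adjusted p = 0.111 and 0.152). The list median was 0.1475, beside 0.03 over all genes. After median centring it was 0.0575, beside -0.06 over all genes. In the list for male neurons and the male tail, with 10 genes, cwp-2 rose (0.675, adjusted p = 0.029), and cil-7 read 0.42 (adjusted p = 0.18), with a list median of 0.1325. The cwp-2 call was lost when any wild-type array was left out (adjusted p from 0.0876 to 0.126), without mutant arrays 1 and 4 together (adjusted p = 0.0661), after median centring (adjusted p = 0.0813) and with the replicate block (adjusted p = 0.0692). Its means, 5.87 in the mutant and 5.19 in wild type, lay below the bound of 6.425 for dim probe sets. The call of 0 among the 31 egg genes was thus made on arrays where 18 of 35 sperm genes were called higher. Those sperm genes were all msp genes but ssp-10 and may not be separate signals. The part of sperm or male content in the small differences of the egg genes was not tested. The difference between the lists was not tested either.

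**Figure D4:**
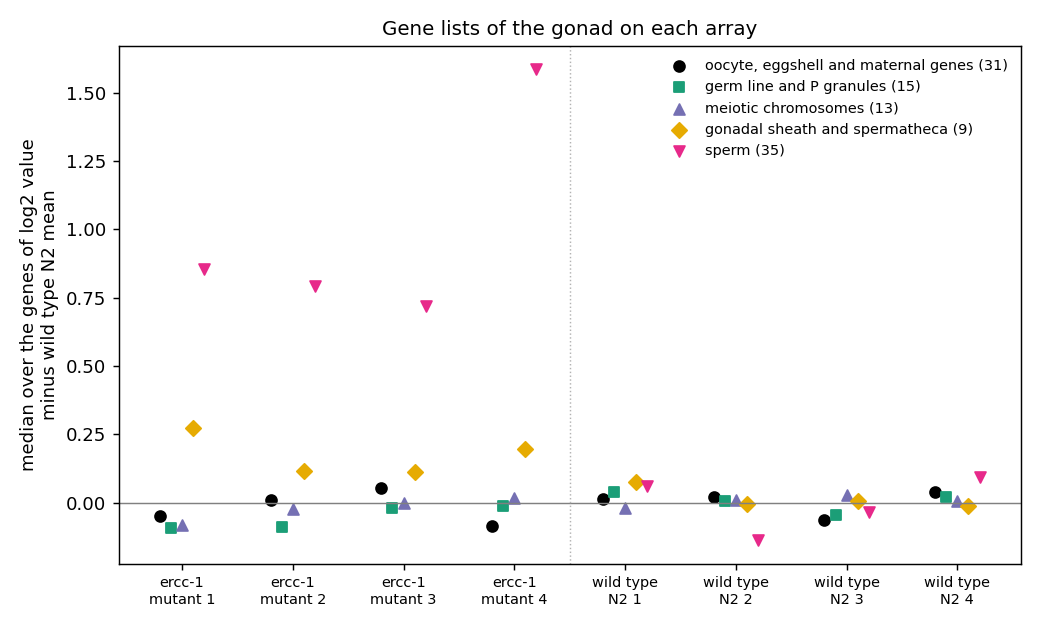
The x axis gives the 8 arrays, ercc-1 mutant left of the dotted line and wild type N2 right of it, and the y axis the median over a list's genes of the log2 value minus the wild type N2 mean. Symbols are gene lists with the number of genes measured. The 31 oocyte, eggshell and maternal genes stay between -0.085 and 0.0525 on all arrays, while the sperm list lies between 0.72 and 1.58 on the mutant arrays.

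By the RefSeq table, 9 of the 31 genes lie on chromosome I, 8 on IV, 6 on III, 5 on II, 3 on V and 0 on X, where 13.8% of all measured genes lie. The 9 genes on chromosome I are cpg-3, chs-1, mex-3, cey-2, cey-3, lin-41, mei-1, mei-2 and car-1. All 9 had negative differences, from -0.1325 to -0.0175, as had 22 of all 31 genes and 47.2% of all measured genes on that chromosome. Without mutant arrays 1 and 4 together, cpg-3, chs-1, mex-3, cey-2, mei-1 and mei-2 turned positive, while cey-3, lin-41 and car-1 stayed negative. The pattern was noticed after the values were seen and was not tested. Of the paralogues in the list, egg-1 and egg-2 lie on chromosome III, as do cpg-1 and cpg-2, and puf-3 and puf-11 on IV, and how far their probes read each other's transcripts is not known here.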

How the data were processed

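Total RNA of 4 ercc-1 mutant and 4 wild type N2 samples was measured on Affymetrix arrays. The authors deposited 1 value per probe set and array, read here as log2 expression from its range of 0 to 14.38; the log base is not stated. Affymetrix Expression Console 1.1 made these values, per the submitters' processing notes. Its algorithm is not given in the sources used here. Detection calls were not used. No further normalization was applied.

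The platform annotation gave 20766 probe sets 1 gene, 887 several and 895 none. Chromosomes came from a RefSeq table (WBcel235). Gene positions were used only to place perm-2 and perm-4 as neighbours, with 0 protein-coding genes between them. The fit used limma's lmFit and eBayes (limma 3.58.1, R 4.3.3) over 22548 probe sets and was tested on simulated data.

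Values are given on every array for the 2 genes of each role group with the smallest p, second probe sets where the sign differs, and from other lists every called gene and up to 2 with the smallest p. Of 163 list entries 149 were measured. The members and lists were chosen with earlier results of these data known. For arrays, their number (4 per strain) limits the precision. Alternatives are listed in the closing section.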

Additional observations from a re-analysis of the deposited data

Results flagged for a closer look

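In 5 of the 62 groups of 4 arrays (31 genes in 2 strains), 1 array stood apart, its gap to the nearest other array divided by the group's range, being above Dixon's 95% critical value; chance alone flags about 1 in 20 groups. All 5 were wild-type arrays, and 4 of them were wild-type array 3. It read 11.09 for oma-1, where the other wild-type arrays read 11.4 to 11.44, and 12.3 for egg-1, where they read 12.49 to 12.51. It read 12.08 for egg-2, against 12.22 to 12.24 on the other wild-type arrays, and 13.08 for pos-1, against 13.16 to 13.17. The fifth was wild-type array 1 for moe-3, at 7.54, against 7.76 to 7.8. Without wild-type array 3 the difference was -0.0567 for oma-1, -0.0808 for egg-1, -0.0625 for egg-2 and 0.0242 for pos-1, with 0 of the 31 genes called.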

How the results depend on the processing

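Of the 31 genes 0 were called under every alternative: quantile normalization, median centring, array weights, a filter on the dimmest 25%, leaving out the _x_at and _s_at probe sets (14 of the 31 remained), the replicate block, a variance fitted as trended and robust, an adjusted p under 0.10, the lowest-mean probe set of a gene, and each array left out in turn. Their median difference of -0.03 was -0.12 after median centring and 0.025 without mutant arrays 1 and 4 together (an alternative added after seeing the data), and ran from -0.0567 to -0.0058 when 1 array was left out. With the replicate block it was -0.03 and the called probe sets were 125 instead of 150. Same-numbered arrays of the strains correlated at 0.473, 0.014, 0.0396 and 0.201 in their deviations from the strain means. Differently numbered arrays ran from -0.389 to 0.252, so the value for the arrays numbered 1 was the highest of all. The main fit did not take the numbers as pairs, and whether any arrays were paired is not known here. The 150 calls over all probe sets became 46 without _x_at and _s_at probe sets, 1423 with array weights, 246 at an adjusted p under 0.10, and 29 to 268 with 1 array left out: 89, 80, 117 and 268 without mutant arrays 1 to 4, and 37, 29, 34 and 31 without wild-type arrays 1 to 4. By limma no difference of the 31 genes was past the threshold (the exact permutation test, unadjusted, gave 0.0286 for cey-3), and small differences changed sign under these settings; the cause was not tested. After quantile normalization they were puf-5 -0.0269, puf-11 -0.0047, moe-3 -0.0247. After median centring, which lowers all by 0.09, they were oma-1 -0.065, puf-5 -0.0775, puf-11 -0.045, cpg-1 -0.07, cpg-2 -0.0575, pos-1 -0.045, perm-2 -0.0125, perm-4 -0.05, moe-3 -0.02. With array weights they were oma-1 -0.0064, oma-2 0.0509, puf-3 0.004, puf-5 -0.0593, puf-11 -0.0036, cpg-3 0.014, mex-3 0.0304, spn-4 0.061, mei-2 0.0259, moe-3 -0.0371. Without mutant arrays 1 and 4 together they were oma-2 0.005, puf-3 0.07, cpg-3 0.0275, egg-1 0.0375, egg-2 0.0425, egg-3 0.0525, chs-1 0.03, mex-3 0.0525, mex-6 0.01, spn-4 0.095, cey-2 0.0125, mei-1 0.0225, mei-2 0.025, cgh-1 0.015, moe-3 -0.065. With the lowest-mean probe set they were oma-2 0.0925, cpg-2 -0.04, cbd-1 0.0375, mex-5 0.0825, pos-1 -0.0075, spn-4 0.03, lin-41 0.0425. With 1 array left out the ranges were oma-2 -0.05 to 0.0142, egg-2 -0.0625 to 0.0142, pie-1 -0.1267 to 0.0033, spn-4 -0.0383 to 0.035, mei-1 -0.0475 to 0.0125, chs-1 -0.0733 to 0.01, oma-1 -0.0567 to 0.075, puf-5 -0.0883 to 0.0675, puf-11 -0.0033 to 0.0833, cpg-2 -0.0008 to 0.0525, puf-3 -0.0858 to 0.03, egg-3 -0.0742 to 0.0058, mex-5 -0.1 to 0.0033.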

Other observations

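Wild-type array 3 was the lowest wild-type array in both probe sets of mex-5 and of mex-6, by gaps of unequal size; these genes were picked after their values were seen. The second mex-5 probe set read 11.81, 11.51, 11.85 and 11.37 in the mutant, against 11.85, 11.66, 11.06 and 11.64 in wild type, and the second mex-6 probe set read 11.51, 11.36, 11.75 and 11.33 in the mutant, against 11.62, 11.66, 11.08 and 11.62 in wild type. The probe sets that stood for these genes read 12.54 and 11.89 on wild-type array 3, against 12.75 to 12.85 and 11.98 to 12.08 on the other wild-type arrays.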
